A study of Mus musculus with 16 samples.

Results

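Glycolysis splits glucose into pyruvate in a chain of cytosolic reactions, and lactate dehydrogenase interconverts pyruvate and lactate. Several steps are served by more than 1 gene, and kidney cell types use different ones: proximal tubule cells burn fatty acids and other fuels and make glucose through the gluconeogenic bypass enzymes, while distal segments, immune cells and fibroblasts rely more on glycolysis. The 10 genes described here encode enzymes of this chain. They are Hk1 and Hk2 (hexokinases), Pfkp and Pfkl (phosphofructokinases), Aldoa (aldolase A), Gapdh (glyceraldehyde-3-phosphate dehydrogenase), Pgk1 (phosphoglycerate kinase), Eno1 (enolase), Pkm (pyruvate kinase) and Ldha (lactate dehydrogenase A). They were taken by symbol from the 40472 genes of the deposited table, in which 11 rows carry these 10 symbols. Among these, the smaller row named Aldoa held 15 counts over all libraries and was not used. All 10 genes passed the filter on low counts, which kept 13614 genes. Hk2 passed it only through its levels in injured libraries.

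Poly(A) RNA was sequenced from whole kidneys of male C57BL/6 mice aged 12 weeks, in 4 groups of 4 libraries. IRP mice had ischemia reperfusion surgery, in which renal blood flow is stopped and restored, and received PJ34, an inhibitor of poly(ADP-ribose) polymerases. IRV mice had the same surgery with vehicle, NP mice received PJ34 without injury, and NV mice received vehicle without injury. The study asked how PJ34 acts in the long term after this injury. The labels give no day of collection and do not say that each replicate is a separate animal, so each p-value reflects only how far the libraries of a group spread, which may be technical.

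The libraries fell into 2 depth sets. Totals of 4963638 to 6169748 counts were found in 6 libraries, namely every IRP library and replicates 3 and 4 of IRV. The other 10, which are replicates 1 and 2 of IRV and every NP and NV library, had totals of 973812 to 1659983. Depth and injury therefore cannot be told apart between IRP and NP, while IRV holds libraries of both sets. Levels are given as CPM, the count scaled to the library size after TMM normalization. Marker genes of cell types also moved with injury. Lower levels in IRV against NV were called for 11 of 12 proximal tubule markers, and in IRP against NP for 10 (edgeR, adjusted p under 0.05), beside 11.1% and 24.0% of all tested genes. With library totals as scaling 4 and 2 of them were called lower, with medians of -0.49 and -0.32, beside 1.81% and 13.1% of all tested genes. With the depth set as a covariate 11 and 2 of the markers were lower, beside 6.13% and 0.786% of all tested genes. The summed level of the 12 proximal tubule markers was 10869 to 23043 CPM in IRP and 11246 to 16843 CPM in IRV, against 22197 to 28373 CPM in NP and 24061 to 25182 CPM in NV. All 12 macrophage markers were higher in both injury comparisons (8 in IRP against NP with the depth set as a covariate), with sums of 474 to 1252 CPM in IRP and 646 to 1064 CPM in IRV, against 87.0 to 159.8 CPM in NP and 86.1 to 123 CPM in NV. Of 12 fibroblast markers 10 were higher in both. Higher levels were called for 15.9% and 19.6% of all tested genes, and with the depth set as a covariate for 7.93% and 2.52%. No marker of these 3 lists was at 0 in a whole group. Of 7 tested loop of Henle and distal tubule markers 3 were lower in both and 0 higher. Their list summed to 1889 to 4762 CPM in IRP and 2215 to 3084 CPM in IRV, against 3839 to 5061 CPM in NP and 4294 to 4727 CPM in NV. With library totals only, 2 were lower in IRV against NV and 3 higher in IRP against NP. Beside them, 1.81% of all tested genes were lower and 51.5% higher in these comparisons and that scaling. Of 8 endothelial markers 4 were higher in both (0 with the depth set as a covariate). In whole tissue, fewer cells of a type and less RNA per cell cannot be told apart, and the part of these markers in the results below was not tested.

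Levels per kilobase of transcript differed widely among the 10 genes. In IRV kidneys Gapdh averaged 245 ± 30.8 CPM per kilobase, Aldoa 196 ± 27.6, Ldha 154 ± 13.2, Eno1 101 ± 8.16 and Pgk1 77.5 ± 6.65 (SD, n = 4). In NV kidneys Gapdh averaged 429.6 ± 31.5 CPM per kilobase, Aldoa 248 ± 39.1, Ldha 204 ± 19.6, Pgk1 125 ± 13.5 and Eno1 124 ± 17.2. The neighbours Pgk1 and Eno1 differed by less than their spread in NV, while in IRV Eno1 stood above Pgk1 by more than either SD. Lower in the order came Pkm at 64.2 ± 7.97 in IRV and 72.2 ± 7.51 in NV, Hk1 at 30.9 ± 2.11 and 28.9 ± 3.78, Pfkp at 18.0 ± 1.34 and 10.04 ± 2.56, Pfkl at 6.76 ± 0.35 and 6.67 ± 0.49, and Hk2 at 2.29 ± 0.26 and 0.41 ± 0.25 CPM per kilobase, each in IRV and in NV. The hexokinase and phosphofructokinase genes were thus the lowest of the 10 per length.

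**Figure D1:**
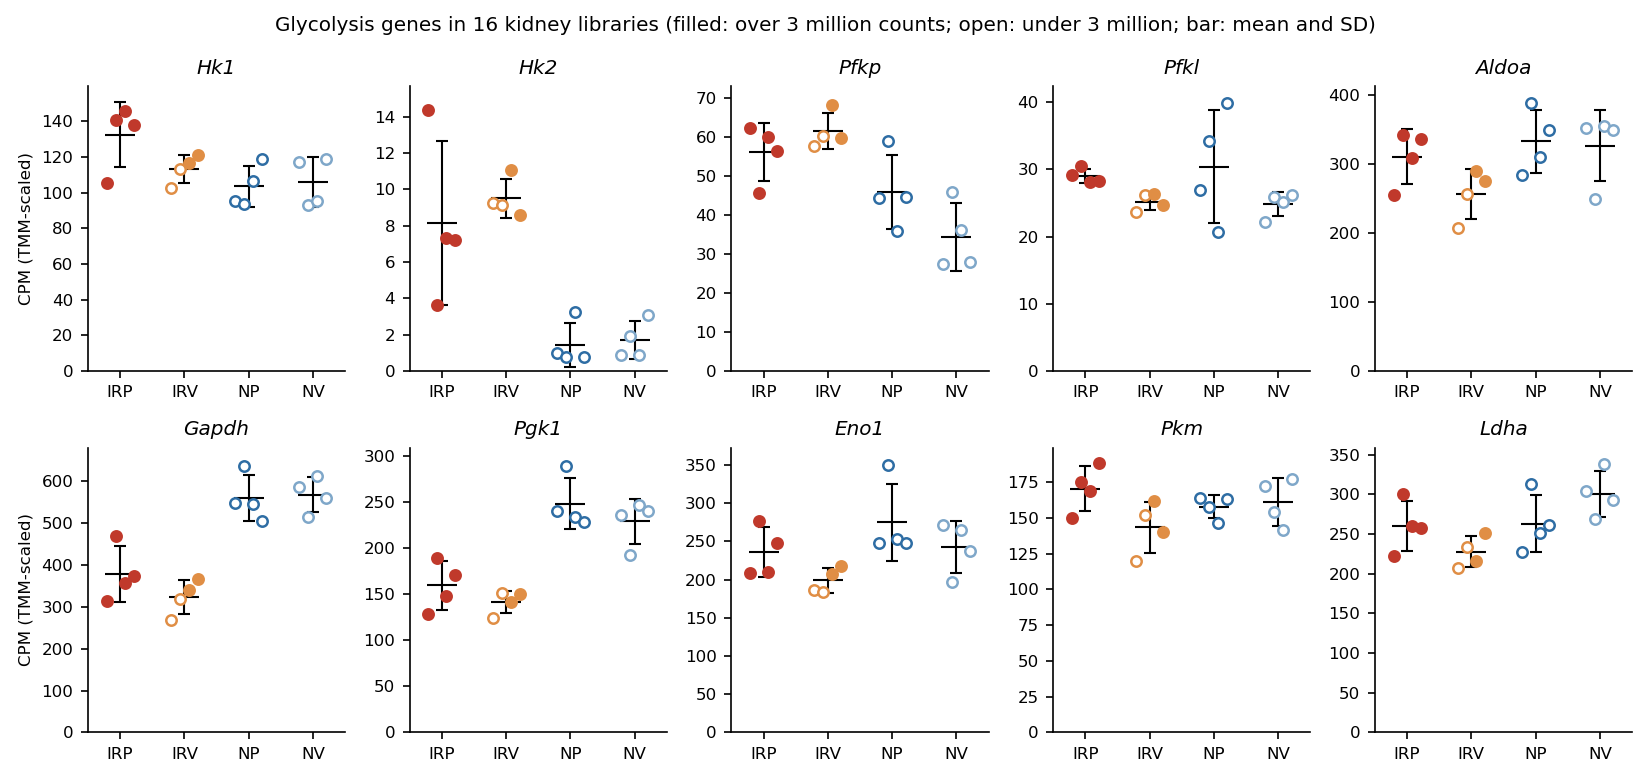
Level of each of the 10 genes (CPM on the vertical axis) in every library of the 4 groups, with bars for the group mean and SD; filled points are libraries over 3000000 counts and open points libraries under it. Hk2 lies at 3.62 to 14.4 CPM in the 8 injured libraries and at 0.74 to 3.26 CPM in the 8 uninjured ones, while Gapdh lies at 269 to 469 CPM in injured and 506 to 636 CPM in uninjured libraries.

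Injury with vehicle (IRV against NV) came with higher levels of 2 genes of early steps, Hk2 and Pfkp, and lower levels of 3 genes of later steps, Gapdh, Pgk1 and Ldha. These 3 were not called, and Ldha changed sign, when libraries were scaled by their totals alone. That scaling shifted the all-gene median to 0.49 on the log2 scale, and in it Gapdh had -0.30 (adjusted p = 0.16), Pgk1 -0.18 (adjusted p = 0.35) and Ldha turned to 0.10 (adjusted p = 0.60). Relative to that median the 3 genes stood at -0.79, -0.67 and -0.39. In this scaling 4 of the 10 genes were called higher and 0 lower, beside 42.0% and 1.81% of all tested genes. Without a filter on low counts they had -0.50, -0.38 and -0.10 and were not called either (adjusted p = 0.094, 0.17 and 0.75). The count was thus 2 of 10 higher and 3 of 10 lower, beside 15.9% of all tested genes higher and 11.1% lower (27.0% in either direction). The same 5 genes had groups that did not overlap, beside 15.1% of all genes separated upward and 11.9% downward. The median log2 fold change of the 10 genes was -0.22, and that of all tested genes -0.03.

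Injury under PJ34 (IRP against NP) gave 2 genes higher, Hk2 and Hk1, and 2 lower, Gapdh and Pgk1, beside 19.6% of all tested genes higher and 24.0% lower (43.6% in either direction). The median of the 10 genes was -0.05 and that of all genes -0.01. With library totals only, the median of all genes was 0.57, 7 of the 10 genes were called higher and 0 lower, beside 51.5% and 13.1% of all genes, and Gapdh stood at 0.00 and Pgk1 at -0.07. Relative to that median they stood at -0.57 and -0.64. Without a filter they had -0.13 and -0.20 (adjusted p = 0.60 and 0.34). Groups did not overlap for Hk2, upward, and for Gapdh and Pgk1, downward, beside 19.6% and 21.2% of all genes. With the depth set as a covariate 1 of the 10 genes was called in this comparison, Gapdh, at -0.82 (edgeR, adjusted p = 0.0497), beside 3.31% of all genes. The depth term of that fit rests on IRV alone, the only group with libraries of both sets. IRP against NP takes the term over from there, so a call lost in that fit does not show that depth made the change.

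**Figure D2:**
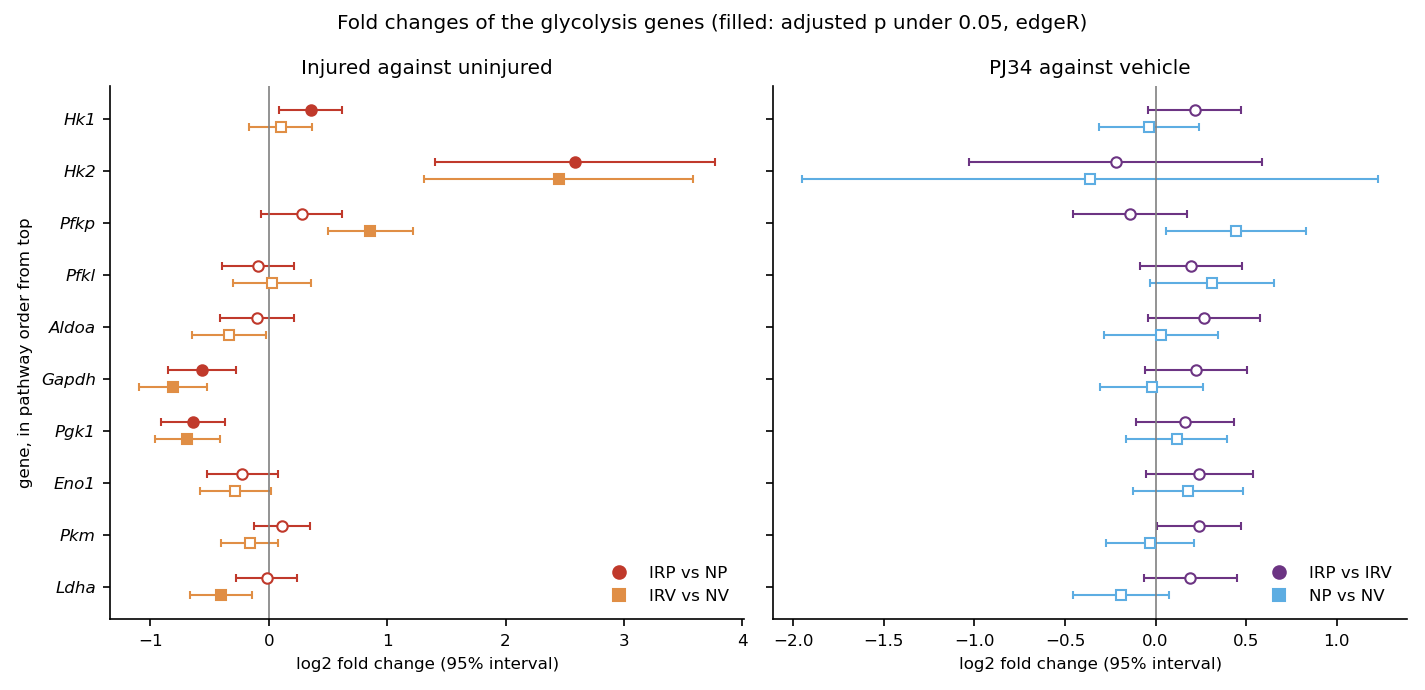
log2 fold change with its 95% interval for each gene, in pathway order; the left panel sets injured against uninjured kidneys and the right panel PJ34 against vehicle, and filled symbols have an adjusted p under 0.05. The Hk2 symbols stand at 2.59 (IRP vs NP) and 2.45 (IRV vs NV), the Gapdh and Pgk1 symbols at -0.81 to -0.56 on the TMM scale (with library totals only, Gapdh in IRP vs NP is at 0.00), and no symbol of the right panel is filled.

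Hk2, Gapdh and Pgk1 were called the same way in both injury comparisons, and the 250 bases before their RefSeq transcription starts (GRCm38.p6) are shown for that reason. The capitals mark ACGTG on either strand (CACGT where it lies on the other strand). ACGTG is a form of the core of the element bound by hypoxia-inducible factors, which are known to act on many glycolysis genes. Other forms of that core, such as GCGTG, were not searched or marked. The windows are chr6:82774455-82774704 on the minus strand for Hk2, chr6:125165774-125166023 on the minus strand for Gapdh and chrX:106186850-106187099 on the plus strand for Pgk1.
Hk2: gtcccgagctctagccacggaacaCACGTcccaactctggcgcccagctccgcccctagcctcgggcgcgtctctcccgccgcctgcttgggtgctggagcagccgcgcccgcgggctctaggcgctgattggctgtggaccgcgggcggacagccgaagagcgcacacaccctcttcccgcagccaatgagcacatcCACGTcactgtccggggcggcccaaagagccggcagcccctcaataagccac
Gapdh: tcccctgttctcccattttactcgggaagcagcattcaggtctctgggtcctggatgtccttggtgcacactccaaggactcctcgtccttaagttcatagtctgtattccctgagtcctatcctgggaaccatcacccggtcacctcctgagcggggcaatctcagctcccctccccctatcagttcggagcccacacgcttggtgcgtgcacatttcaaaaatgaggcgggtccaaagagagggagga
Pgk1: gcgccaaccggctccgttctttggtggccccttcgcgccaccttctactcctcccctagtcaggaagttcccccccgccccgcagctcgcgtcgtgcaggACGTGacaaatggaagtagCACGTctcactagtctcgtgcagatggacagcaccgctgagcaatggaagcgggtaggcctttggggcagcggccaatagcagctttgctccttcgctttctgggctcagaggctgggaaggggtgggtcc
Hk2 held the motif at 2 places, starting at -226 and -52 from the transcription start, and Pgk1 at 2 places, starting at -150 and -131. The Gapdh window held no ACGTG on either strand, though it does hold the unmarked letters gcgtg. On the TMM scale Hk2 was called higher and Pgk1 lower, while with library totals only Pgk1 was not called. The part of the motif in either change was not tested. All 10 genes matched the promoter table, with 17 windows in all, and 6 windows of 5 genes held the motif. Of all 32851 windows of the table, 5444 (16.6%) held it, as did 20% of the windows whose GC content lay in the range of the 17, 49.6% to 71.2%. A match describes the letters only.

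Hexokinase traps glucose in the cell as glucose 6-phosphate. Hk1 is the widely expressed form and Hk2 an inducible one. Hk2 had 14.4, 3.62, 7.34 and 7.19 CPM in IRP replicates 1 to 4, against 0.96, 0.74, 3.26 and 0.78 CPM in NP. In IRV it had 9.25, 9.12, 11.1 and 8.57 CPM, against 0.85, 1.91, 0.90 and 3.09 CPM in NV. Injured and uninjured groups did not overlap in either comparison. Hk2 passed the filter on low counts only through the injured libraries, so the separation and the calls rest partly on values that the filter used. Hk2 was 5.46-fold higher in IRV than in NV (log2 2.45 ± 0.54 SE, adjusted p = 0.0029, edgeR) and 6.01-fold higher in IRP than in NP (2.59 ± 0.56, adjusted p = 0.0016). The uninjured values rest on 1 to 4 counts per library, 6 in all in NP and 8 in NV, so the size of the fold is imprecise, with 95% intervals of 1.31 to 3.58 and 1.40 to 3.77 on the log2 scale. With the depth set as a covariate the log2 change was 2.38 in IRV against NV (adjusted p = 0.028) and 2.52 in IRP against NP, which was not called (adjusted p = 0.11). Within libraries under 3000000 counts it was 2.34 in IRV against NV (adjusted p = 0.051).

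Hk1 had 105, 141, 146 and 138 CPM in IRP, against 95.1, 93.7, 107 and 119 CPM in NP, groups that overlapped in IRP replicate 1. Its log2 change was 0.35 ± 0.13 (adjusted p = 0.030, edgeR). Leaving out any one of 7 of the 8 libraries ended the call (IRP replicates 2, 3 and 4 and every NP replicate), with log2 changes of 0.24 to 0.36 without those libraries. With the depth set as a covariate it was 0.22 (adjusted p = 0.66). In IRV Hk1 had 103 to 121 CPM, against 92.8 to 119 CPM in NV, a change of 0.10 ± 0.13 (adjusted p = 0.58), but with library totals only 0.61, which was called (adjusted p = 0.0081). Per kilobase, Hk2 made up 5.16% ± 3.49 of the hexokinase step in IRP and 6.45% ± 0.77 in IRV, against 1.12% ± 0.88 in NP and 1.32% ± 0.77 in NV (SD, n = 4). Hk1 held 80.7% or more of the step in every library.

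Phosphofructokinase commits sugar to glycolysis. Pfkp, the platelet form, had 57.6, 60.2, 68.0 and 59.7 CPM in IRV, against 27.4, 45.9, 36.01 and 27.8 CPM in NV. Every IRV library lay above every NV library. The change was 1.81-fold (log2 0.86 ± 0.17, adjusted p = 0.0015, edgeR), and it stood at 0.80 with the depth set as a covariate (adjusted p = 0.019). In IRP Pfkp had 62.1, 45.5, 59.9 and 56.4 CPM, against 44.2, 58.8, 35.9 and 44.5 CPM in NP, and the groups overlapped. That change, 0.28 ± 0.16, was not called (adjusted p = 0.18), but it was called without NP replicate 2 (0.44, adjusted p = 0.049), without a filter (0.71, adjusted p = 0.0038) and with library totals only (0.87, adjusted p = 0.0015). The difference between the 2 injury effects on Pfkp was -0.58 (95% interval -1.08 to -0.08, unadjusted p = 0.025, adjusted p = 0.36). Pfkl, the liver form, had log2 changes of 0.03 in IRV against NV and -0.09 in IRP against NP, with adjusted p of 0.92 and 0.64. With library totals only these were 0.55 and 0.49, both called.

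Aldolase splits the 6-carbon sugar, and Aldoa encodes its widely expressed form. Aldoa had 207, 257, 289 and 276 CPM in IRV, against 353, 249.6, 355 and 349 CPM in NV. NV replicate 2 lay inside the IRV range, and the change of -0.34 ± 0.15 was not called (adjusted p = 0.10), though it was without that library (-0.44, adjusted p = 0.040). In IRP it had 255 to 343 CPM, against 284 to 388 CPM in NP (log2 -0.10, adjusted p = 0.61). With library totals only that change was 0.47 and was called (edgeR, adjusted p = 0.040), where the median of all genes was 0.57.

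**Figure D3:**
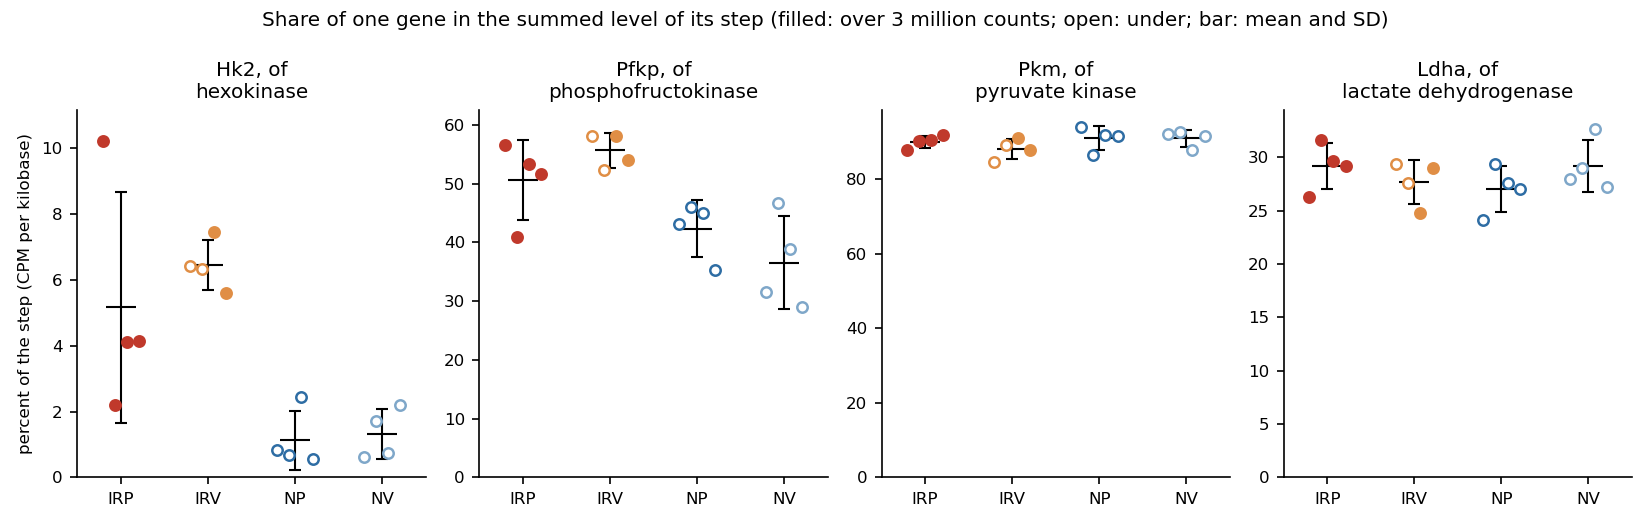
Share of 1 gene in the summed CPM per kilobase of the listed genes of its step (percent, vertical axis), per library and group, with mean and SD. The Hk2 share of the hexokinase step is 2.18% to 10.2% in IRP and 5.58% to 7.46% in IRV, against 0.55% to 2.44% in NP and 0.62% to 2.20% in NV, while the Pkm and Ldha shares overlap between all groups.

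Gapdh makes NADH while it oxidises the triose, and Pgk1 then yields ATP. Gapdh had 313, 469, 357 and 374 CPM in IRP, against 548, 636, 546 and 506 CPM in NP. In IRV it had 269, 319, 339.8 and 365 CPM, against 586, 514, 611 and 561 CPM in NV. All 8 injured libraries lay below all 8 uninjured ones. On the TMM scale it fell to 323 ± 40.7 CPM in IRV, 42.9% lower than in NV (log2 -0.81 ± 0.14, adjusted p = 0.00041, edgeR), and to 378 ± 65.9 CPM in IRP, 32.3% lower than in NP (-0.56 ± 0.13, adjusted p = 0.0029), though with library totals only it stood at -0.30 and 0.00 and neither was called. It is often used as a reference gene in quantitative PCR.

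Pgk1 had 128, 189, 148 and 171 CPM in IRP, against 240.2, 289, 234 and 228 CPM in NP. In IRV it had 124, 151, 141 and 149 CPM, against 236, 192, 247 and 239 CPM in NV. Here too the injured and uninjured libraries did not overlap. The log2 change was -0.69 ± 0.13 in IRV against NV (adjusted p = 0.0011, edgeR) and -0.64 ± 0.13 in IRP against NP (adjusted p = 0.00099); with library totals only it was -0.18 and -0.07 and was not called. With the depth set as a covariate it was -0.73 (adjusted p = 0.0086) and -0.71 (adjusted p = 0.094). A near copy, Pgk1-rs7, held 50 counts in NP replicate 2, 50 in NV replicate 2 and 0 elsewhere. Pgk1 itself held 388 counts in NP replicate 2 and 201 in NV replicate 2. NP replicate 2 had the highest Pgk1 level of its group, 289 CPM, and NV replicate 2 the lowest of its group, 192 CPM.

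Marker sums are given beside these levels as a description of single libraries. IRP replicate 1 had the lowest proximal tubule sum of its group, 10869 CPM, with the highest macrophage sum, 1252 CPM, the lowest Gapdh and Pgk1 levels and the highest Hk2 level. IRP replicate 2 had the highest proximal tubule sum, 23043 CPM, which lies inside the NP range, with the lowest macrophage sum, 474 CPM, the highest Gapdh and Pgk1 levels and the lowest Hk2 level. These 2 libraries were also the extremes of IRP for other tubule segments. Loop of Henle and distal tubule markers summed to 1889 CPM in replicate 1 and 4762 CPM in replicate 2. Collecting duct markers summed to 80.0 and 276 CPM. In IRV, replicate 1 had the lowest proximal tubule sum, 11246 CPM, with the lowest Gapdh and Pgk1 levels. Replicate 2 had the highest sum, 16843 CPM, with the lowest macrophage sum, 646 CPM, and the highest Pgk1 level, 151 CPM. Its Gapdh level, 319 CPM, was the second lowest of the group. Pgk1 thus ranked as the proximal tubule sum did over the IRV libraries, while Gapdh did not. The highest Hk2 level of IRV, 11.1 CPM, was in replicate 3, with the highest macrophage sum, 1064 CPM. The part of cell composition in these levels was not tested.

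**Figure D4:**
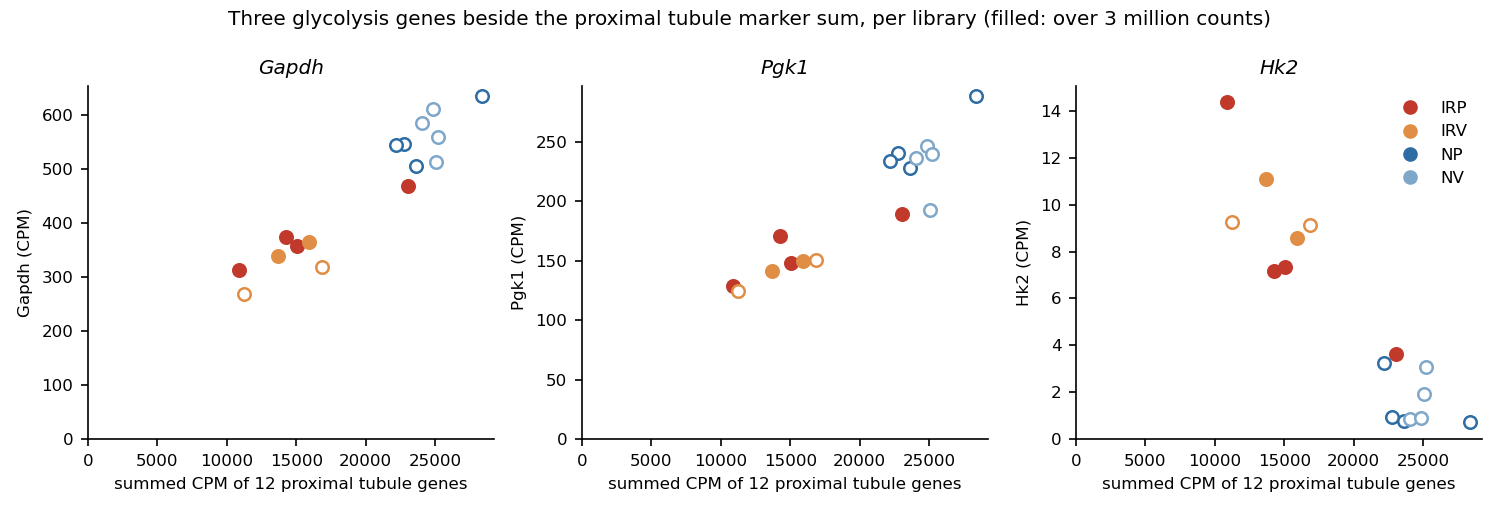
Level of Gapdh, Pgk1 and Hk2 (CPM) against the summed CPM of 12 proximal tubule marker genes, 1 point per library, coloured by group. IRP replicate 2, at 23043 CPM of markers, has the highest Gapdh (469 CPM) and lowest Hk2 (3.62 CPM) level of the injured libraries.

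Enolase makes phosphoenolpyruvate, and pyruvate kinase turns it into pyruvate. Eno1 had 184 to 217 CPM in IRV, against 197 to 271 CPM in NV (log2 -0.28 ± 0.14, adjusted p = 0.15), and 209 to 277 CPM in IRP, against 248 to 350.4 CPM in NP (-0.22 ± 0.14, adjusted p = 0.22; without IRP replicate 2 -0.39, adjusted p = 0.040). With library totals only both signs turned, to 0.23 and 0.35. A near copy, Eno1b, held 2018 counts, 16.4% of those of Eno1, and 4.95% to 55.2% in single libraries. With the counts of near copies added to each gene, a setting chosen after the counts were seen, Eno1 stood at -0.57 (adjusted p = 0.0034) and -0.33 (adjusted p = 0.045), both called. How reads were shared between such copies was not tested. Over all libraries, the near copies of Aldoa together held 2.63% of its counts, those of Pgk1 2.06%, those of Ldha 0.66% and those of Gapdh 0.47%. Pkm had 120.3 to 162 CPM in IRV, against 141 to 178 CPM in NV, and 149.8 to 188 CPM in IRP, against 147 to 164 CPM in NP, and neither change was called (-0.16 and 0.11, adjusted p = 0.30 and 0.45). In IRP against NP Pkm was called without a filter (0.54, adjusted p = 0.012) and with library totals only (0.69, adjusted p = 0.0015). Counts per gene do not separate the PKM1 and PKM2 splice forms. Pkm held 84.6% or more of the pyruvate kinase step in every library, the rest being Pklr.

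Ldha had 208, 234, 216 and 252 CPM in IRV, against 303, 269, 339 and 293 CPM in NV. The groups did not overlap, and on the TMM scale the change was -0.40 ± 0.12 (adjusted p = 0.023, edgeR), against 0.10 with library totals only. The call was lost with the depth set as a covariate (-0.44, adjusted p = 0.069), within libraries under 3000000 counts (-0.45, adjusted p = 0.083), and without IRV replicate 3 (adjusted p = 0.057) or NV replicate 3 (adjusted p = 0.059). In IRP Ldha had 222 to 300.4 CPM, against 228 to 312 CPM in NP, a change of -0.02 ± 0.12 (adjusted p = 0.93). With library totals only that change was 0.55 and was called (edgeR, adjusted p = 0.0054), where the median of all genes was 0.57. The difference between the 2 injury effects was 0.38 (95% interval 0.02 to 0.75, unadjusted p = 0.042, adjusted p = 0.42). Ldhb, the heart-type subunit, made up 70.8% of the step in IRP, 72.3% in IRV, 73.0% in NP and 70.8% in NV.

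Ratios of 2 genes of the same step within a library do not depend on library scaling beyond the prior count. Of 7 pairs, 6 could be used, in 4 comparisons, which gives 24 exact two-sided permutation tests with a smallest possible p of 0.0286. The ratio of Hk2 to Hk1 differed by 2.15 on the log2 scale between IRV and NV, and that of Pfkp to Pfkl by 0.84, each at that smallest exact p. Pfkp to Pfkl was lower in IRP than in IRV by the same test (-0.34). No ratio passed after Benjamini-Hochberg adjustment over the 24 tests (lowest adjusted p = 0.14). Hk2 to Hk1 in IRP against NP differed by 1.77 (exact permutation p = 0.057). Ratios of Pfkm to Pfkl, Pkm to Pklr and Ldha to Ldhb did not reach an unadjusted p under 0.05.

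PJ34 in injured kidneys (IRP against IRV) gave 0 of 10 genes and 0 of 13614 genes past the threshold (edgeR, 0.0% of tested genes). An unadjusted p under 0.05 was found for 1 of the 10 genes and 1832 of all. DESeq2 called 0 of the 10 and 1282 of all, with 1277 lower and 5 higher in IRP. Every IRP library but only some IRV libraries belonged to the deeper set, so depth and PJ34 were partly mixed in this comparison. Within the deeper libraries edgeR called 0 genes, and with the depth set as a covariate also 0. The part of depth in the DESeq2 calls was not tested. Pkm had the lowest p of the 10, with a log2 change of 0.24 (95% interval 0.01 to 0.47, adjusted p = 0.34). Of the 10 genes, 8 had a positive sign, with a median of 0.20 against 0.02 for all genes. Pfkl was the only one of the 10 whose IRP and IRV libraries did not overlap, at 28.2 to 30.4 CPM in IRP against 23.6 to 26.4 CPM in IRV (log2 0.19, adjusted p = 0.68); 1.51% of all tested genes were separated in that direction and 1.92% in the other. The interval of the difference was widest for Hk2, -1.03 to 0.59.

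In uninjured kidneys (NP against NV) 0 of 10 genes passed (edgeR, 0.0% of tested genes), 1 had an unadjusted p under 0.05 and DESeq2 called 0. That gene was Pfkp, at 0.44 (95% interval 0.06 to 0.83, adjusted p = 1.00), and the groups overlapped for all 10 genes, beside 1.28% of all genes separated upward and 1.15% downward. For the interaction of PJ34 with injury 0 of 10 passed (0.0% of tested genes; 1550 of all genes and 2 of the 10 at an unadjusted p under 0.05; DESeq2 0 of the 10 and 22 of all), the 2 being Pfkp and Ldha, given above.

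**Figure D5:**
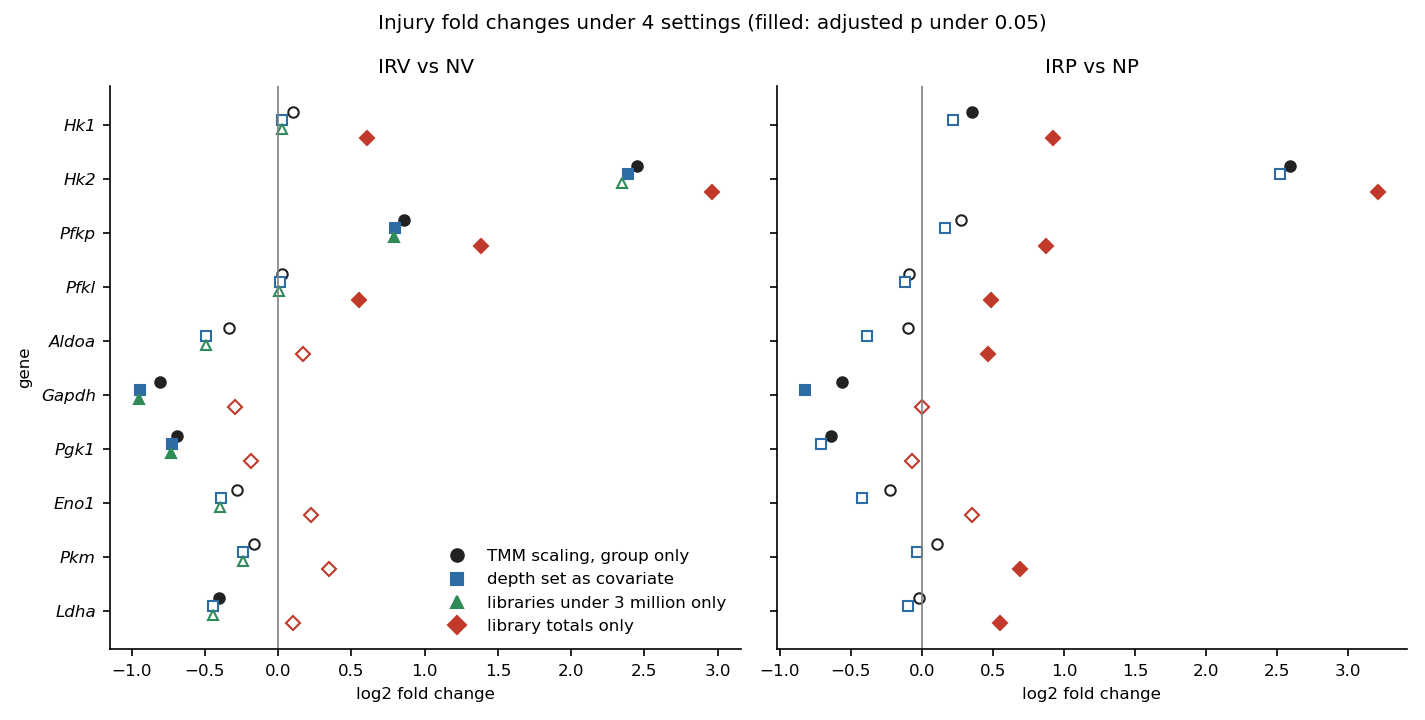
log2 fold change of each gene under 4 settings for IRV vs NV (left) and IRP vs NP (right); filled symbols have an adjusted p under 0.05, and libraries under 3000000 counts allow IRV vs NV only. Pfkp in IRV vs NV stands between 0.79 and 1.38 and is filled in all 4, while with library totals only every symbol lies to the right of its TMM value.

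Other genes of the pathway were taken from lists chosen with earlier results of these data known. Of 12 tested further glycolysis genes, 4 had lower levels and 0 higher ones in IRV against NV, and 5 and 0 in IRP against NP, with medians of -0.48 and -0.36, beside 11.1% and 24.0% of all genes lower and 15.9% and 19.6% higher. With library totals only, 1 was higher and 2 lower in IRV against NV, and 4 and 0 in IRP against NP. In that scaling 42.0% of all genes were higher and 1.81% lower in IRV against NV, and 51.5% and 13.1% in IRP against NP. With the depth set as a covariate 2 were lower in IRV against NV and 0 in IRP against NP. In that fit 7.93% of all genes were higher and 6.13% lower in IRV against NV, and 2.52% and 0.786% in IRP against NP. Tpi1, triosephosphate isomerase, changed by -0.65 and -0.36 (adjusted p = 0.0023 and 0.043) and Pgam1, phosphoglycerate mutase, by -0.52 and -0.48 (adjusted p = 0.0061 and 0.0054); with library totals only both turned positive in IRP against NP, at 0.21 and 0.10. The same shares of all genes, setting by setting, stand beside the next counts. Of 8 gluconeogenic bypass genes, 6 were lower and 1 higher in IRV against NV and 5 lower in IRP against NP. Their medians were -0.93 and -0.76. Library totals as scaling gave 2 lower and 1 higher in each comparison, with medians of -0.40 and -0.21, and with the depth set as a covariate 6 and 2 were lower. Fbp1, fructose bisphosphatase, fell by 1.17 and 0.99, Pck1, the cytosolic PEP carboxykinase, by 1.16 and 1.83, and G6pc, glucose 6-phosphatase, by 1.27 and 1.39 on the log2 scale (adjusted p of at most 0.0076 in these 6 tests).

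Of 21 tested regulators and transporters, 2 were higher and 5 lower in IRV against NV, and 3 and 3 in IRP against NP, against the shares of all genes given above. Scaled by totals alone, 9 were higher and 1 lower in IRV against NV, and 13 and 1 in IRP against NP. With the depth set as a covariate 2 were lower in IRV against NV and 0 were called in IRP against NP. The shares of all genes in these settings are also given above. Pfkfb3, which makes the activator of phosphofructokinase, had 36.5 ± 8.10 CPM in IRP, against 15.0 ± 5.72 CPM in NP (log2 1.27 ± 0.24, adjusted p = 0.00066, edgeR; 0.68 and not called with the depth set as a covariate), and 26.7 ± 6.81 CPM in IRV, against 18.9 ± 2.28 CPM in NV (0.57 ± 0.24, adjusted p = 0.089). Slc16a7, a monocarboxylate transporter, changed by -1.05 in IRV against NV and by -1.06 in IRP against NP (adjusted p = 0.0034 and 0.0017). Pdk2, which inhibits pyruvate dehydrogenase, changed by -0.73 (adjusted p = 0.0038) and -0.37 (adjusted p = 0.075; 0.19 with library totals only). Of 12 tested hypoxia targets outside glycolysis, 3 were higher and 1 lower in IRV against NV, and 3 and 3 in IRP against NP. Of all tested genes 15.9% were higher and 11.1% lower in IRV against NV, and 19.6% and 24.0% in IRP against NP. Scaled by totals alone, 8 and 6 of the hypoxia targets were higher and 0 lower. In that scaling 42.0% and 51.5% of all genes were higher and 1.81% and 13.1% lower. The fit that carries the depth set left 2 hypoxia targets higher in each comparison, and 1 lower in IRV against NV. In that fit 7.93% and 2.52% of all genes were higher and 6.13% and 0.786% lower. Loxl2, a collagen cross-linking enzyme, rose by 2.04 and 1.62 and Ddit4, an inhibitor of mTORC1 signalling, by 1.77 and 1.76, while Bnip3, a mitophagy receptor, changed by -0.71 and -0.55 (0.02 with library totals only in IRP against NP).

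Within groups, the 10 genes varied together to differing degrees. Over the 16 libraries, after subtraction of group means, the 10 pairs among Aldoa, Gapdh, Pgk1, Eno1 and Ldha had Pearson r of 0.76 to 0.90, and Hk2 had -0.61 to -0.43 with those 5. These points share library scaling and tissue make-up and are a description. By Pearson r of log2 CPM over 16 libraries, the gene outside the lists closest to Gapdh was Ogdh (0.98), to Hk2 Rin2 (0.96), to Pfkp Gimap3 (0.93), to Aldoa 2610507B11Rik (0.91), to Eno1 Ndufs3 (0.91), to Ldha Vdr (0.90), to Pkm Kif16b (0.84), to Hk1 Ntn4 (0.83) and to Pfkl 2810402E24Rik (0.82). This r includes the difference between groups, and each gene named is the highest of those searched. After subtraction of group means, r was lowest for Hk1 and Ntn4 (0.68) and Hk2 and Rin2 (0.79). It was highest for Gapdh and Ogdh (0.92).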

How the data were processed

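The submitters' processing notes name Salmon 1.3.0, DESeq2 1.30.1, Trim Galore 0.6.6 and FastQC 0.11.3, with build GRCm39, and give no roles. The authors deposited expected counts for each gene, not normalized and already whole, so rounding changed none. Symbols matched 40276 IDs. Genes were kept with filterByExpr (minimum count 10) and tested by edgeR's quasi-likelihood method (version 4.0.16, R 4.3.3) on TMM-scaled counts, all 16 libraries in 1 fit with group as the only term, Benjamini-Hochberg over 13614 genes, threshold 0.05. DESeq2 1.42.0 was an alternative. The statistics were tested on simulated data. Levels per kilobase used mean coding transcript lengths of GENCODE M21, an older build, so no gene coordinates are given beyond the RefSeq promoter windows. Ratios used log2 CPM with a prior count of 2. The 10 genes, the lists and the depth boundary of 3000000 counts were chosen with earlier results of these data known. Named were all 10 genes and, per list, the 3 called genes with the smallest p; some genes and ratios that the rules name are not reported here. No libraries agreed within sampling noise. Replicate numbers did not pair samples.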

Additional observations from a re-analysis of the deposited data

Results flagged for a closer look

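In 3 of 40 groups of 4 libraries tested (10 genes in 4 groups), 1 library stood apart from the other 3 by Dixon's criterion at its 95% critical value; chance flags about 1 in 20 groups. Hk2 was 3.26 CPM in NP replicate 3, against 0.74 to 0.96 CPM in the other NP libraries, a difference of 3 counts against 1 in each. Aldoa was 249.6 CPM in NV replicate 2, against 349 to 355 CPM in the other NV libraries. Eno1 was 350.4 CPM in NP replicate 2, against 248 to 253 CPM in the other NP libraries.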

How the results depend on the processing

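Of the 10 genes, 5 were called in IRV against NV and 4 in IRP against NP. RLE size factors and DESeq2 gave 5 and 4. Without a filter 2 were called in IRV against NV, and within libraries under 3000000 counts 3, beside 9.2% and 13.3% of all genes. With library totals only 7 were called in IRP against NP, and with the depth set as a covariate 1, beside 64.6% and 3.31% of all genes. Leaving out 1 library gave 4 to 6 in IRV against NV, 3 to 4 in IRP against NP and 0 in the other comparisons. The replicate numbers share only a number: correlations of same-numbered deviations ran from -0.23 to 0.26, and the replicate block gave 5 and 4 calls, changing no call.

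Directions that turned with library totals only were, in IRV against NV, Aldoa 0.17, Eno1 0.23, Pkm 0.35 and Ldha 0.10, and in IRP against NP, Pfkl 0.49, Aldoa 0.47, Gapdh 0.0029, Eno1 0.35, Ldha 0.55, Bnip3 0.018, Pdk2 0.19, Pgam1 0.10 and Tpi1 0.21. Without a filter, which shifted the median of all genes to -0.32 and -1.08, they were Eno1 0.022 and Pkm 0.14 in IRV against NV, and Pfkl 0.35, Aldoa 0.33, Eno1 0.21, Ldha 0.42, Pdk2 0.063 and Tpi1 0.079 in IRP against NP. With the depth set as a covariate, Pkm in IRP against NP was -0.032 and Eno1 in the interaction -0.030. The cause was not tested.

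Leaving out 1 library turned the sign of these values, which then ran from -0.013 to 0.14 (Hk1), -0.087 to 0.050 (Pfkl) in IRV against NV; -0.0071 to 0.18 (Pkm), -0.18 to 0.089 (Ldha) in IRP against NP; -0.12 to 0.024 (Hk1), -1.04 to 0.14 (Hk2), -0.082 to 0.096 (Aldoa), -0.094 to 0.019 (Gapdh) and -0.092 to 0.020 (Pkm) in NP against NV; and -0.38 to 0.80 (Hk2), -0.25 to 0.037 (Pfkl), -0.064 to 0.14 (Pgk1) and -0.043 to 0.21 (Eno1) in the interaction. Among ratios the ranges were -0.53 to 0.027 (Hk2 to Hk1) and -0.15 to 0.26 (Pkm to Pklr) in NP against NV, and -0.23 to 0.027 (Pfkm to Pfkl) in IRP against IRV.

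Calls over all genes moved most in IRV against NV (3673; 5962 with library totals, 1915 with the depth set, 1807 in libraries under 3000000), IRP against NP (5935; 16733 without a filter, 450 with the depth set) and IRP against IRV (0; 422 with library totals, 1282 by DESeq2, 1093 without a filter, 1460 without IRV replicate 3 and 1460 without IRV replicate 4). Of these IRP against IRV calls, 421, 1277, 1084, 1451 and 1447 were lower in IRP, in the order given. IRV replicates 3 and 4 are the deeper IRV libraries, and the part of depth in these calls was not tested. In NP against NV 4 were called by DESeq2, 2 without a filter and 1 without NV replicate 3 or 4, and in the interaction 22 by DESeq2 and 419 without IRV replicate 3. Depth limits Hk2 most, with 1 to 4 counts in each uninjured library.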
